A study of Mus musculus with 6 samples.

Results

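The mouse genes named Zfp followed by a number of 900 or more are zinc finger genes, many of them rodent-specific and most of them packed in tandem clusters. Of 55536 genes in the count table, 79 were protein coding in the GENCODE vM39 annotation and carried such a symbol, and these 79 were the genes examined. The rule used only names and annotation and no measured value, although it was set with earlier results of these data known. Another 339 protein-coding Zfp genes with numbers under 900 served as the closest comparison set.

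Most of these genes encode KRAB zinc finger proteins. An array of C2H2 fingers reads DNA, often within a retroelement, and the KRAB domain recruits Trim28 (KAP1), which brings in the H3K9 methyltransferase Setdb1 and HP1 proteins. The genes arise by tandem duplication, which leaves close copies side by side, and zinc finger gene clusters are themselves known to be coated with H3K9me3 in many cell types. They therefore stand on both sides of the pathway that was disrupted here.

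RNA was sequenced in bulk from Epcam+ α6+ basal keratinocytes, sorted from the dorsal skin of E16.5 embryos. Ctrl embryos were Suv39h1 f/f, Suv39h2-/-, Setdb1 f/f without K14CreERT2, and TKO embryos had the same alleles with K14CreERT2, which the keratin 14 promoter drives in basal keratinocytes. Both groups were given tamoxifen and both lacked Suv39h2, so the comparison concerns loss of Suv39h1 and Setdb1 on that background, and the study describes the litters used for this assay as mosaic. There were 3 libraries per group, with 102159175, 136515436 and 104422632 counts in Ctrl 1 to 3 and 116308383, 108957256 and 118413082 counts in TKO 1 to 3. The 79 genes took 0.0304% to 0.0481% of these counts. Levels are given as CPM after TMM scaling, and 3 counts, taken as the detection floor, corresponded to 0.022 to 0.0294 CPM before scaling. The floor covers counting error only.

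The targeted genes were read first. Setdb1 was at 126, 118 and 121 CPM in Ctrl 1 to 3 and at 95.3, 62.3 and 74.9 CPM in TKO 1 to 3. All TKO libraries lay below all Ctrl libraries, with TKO 1 the closest to them. The log2 fold change was -0.65 (SE 0.161), with adjusted p = 0.286 by edgeR (quasi-likelihood test, all genes) and 0.0449 by DESeq2, so Setdb1 passed neither call, which also needs a change above 1. Suv39h1 was at 88.7, 78.5 and 84 CPM in Ctrl and at 75.6, 68.9 and 89.4 CPM in TKO, and the groups overlapped. Suv39h2 was counted at 15.6 to 17.1 CPM in Ctrl and 16 to 18.9 CPM in TKO, although both groups are labelled Suv39h2-/-. Counts cover whole genes, so reads from exons outside the deleted part are included and the values of Suv39h1 and Suv39h2 check nothing about the deletion.

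The sorted identity was checked against markers. All 8 basal keratinocyte markers were tested, and Krt5, the most abundant, was at 12318, 12051 and 8179 CPM in Ctrl and 6994, 8037 and 9022 CPM in TKO. None of the 8 was called, and 4 had a higher and 4 a lower log2 fold change. Suprabasal keratinocyte markers, led by Krt1, were also abundant, with sums of 18626, 18218 and 20100.1 CPM in Ctrl and 16288, 12319 and 13068 CPM in TKO, beside basal sums of 24329, 24101 and 18107 CPM in Ctrl and 15025, 16826 and 19231 CPM in TKO. The suprabasal sum was thus lower in every TKO library, none of its 5 tested genes was called, and its part in the results was not tested. The 6 fibroblast markers, all detected and led by the collagen gene Col1a1, summed to 1203, 3358 and 3009 CPM in Ctrl and 2162, 2564 and 2807 CPM in TKO. Fibroblast RNA was thus present in every library and lowest in Ctrl 1. In bulk samples fewer cells of a type and less RNA per cell cannot be told apart.

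The proteins were translated from the annotated coding sequences. A KRAB A box pattern was found in 70 of 79 proteins (88.6%), against 143 of 339 (42.2%) for the Zfp genes numbered under 900. At least 3 C2H2 fingers were found in 71, and 65 had both features. The median was 11 fingers, and Zfp974 had the most, 21. No finger was found in 6 translated proteins, those of Zfp1009, Zfp968-ps, Zfp972, Zfp1003, Zfp1008 and Zfp957. For 51 of the 79 proteins the most similar other protein of the set was encoded in the same cluster.

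Neighbouring genes were placed in one cluster where their starts lay within 1 Mb. This gave 25 groups, of which 15 held a single gene and 6 held at least 4 genes and 53 of the 79 in all. In GRCm39 coordinates the largest were 16 genes at chr4:145237287-147932882, 14 genes at chr2:175116856-177720294 and 10 genes at chr17:21787117-23086292. Smaller clusters held 5 genes at chr13:65660492-67508757, 4 genes at chr2:150023675-150170961 and 4 genes at chr7:42226953-42844955. The clusters differed in how far their copies had diverged, which is given beside the levels below.

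**Figure D1:**
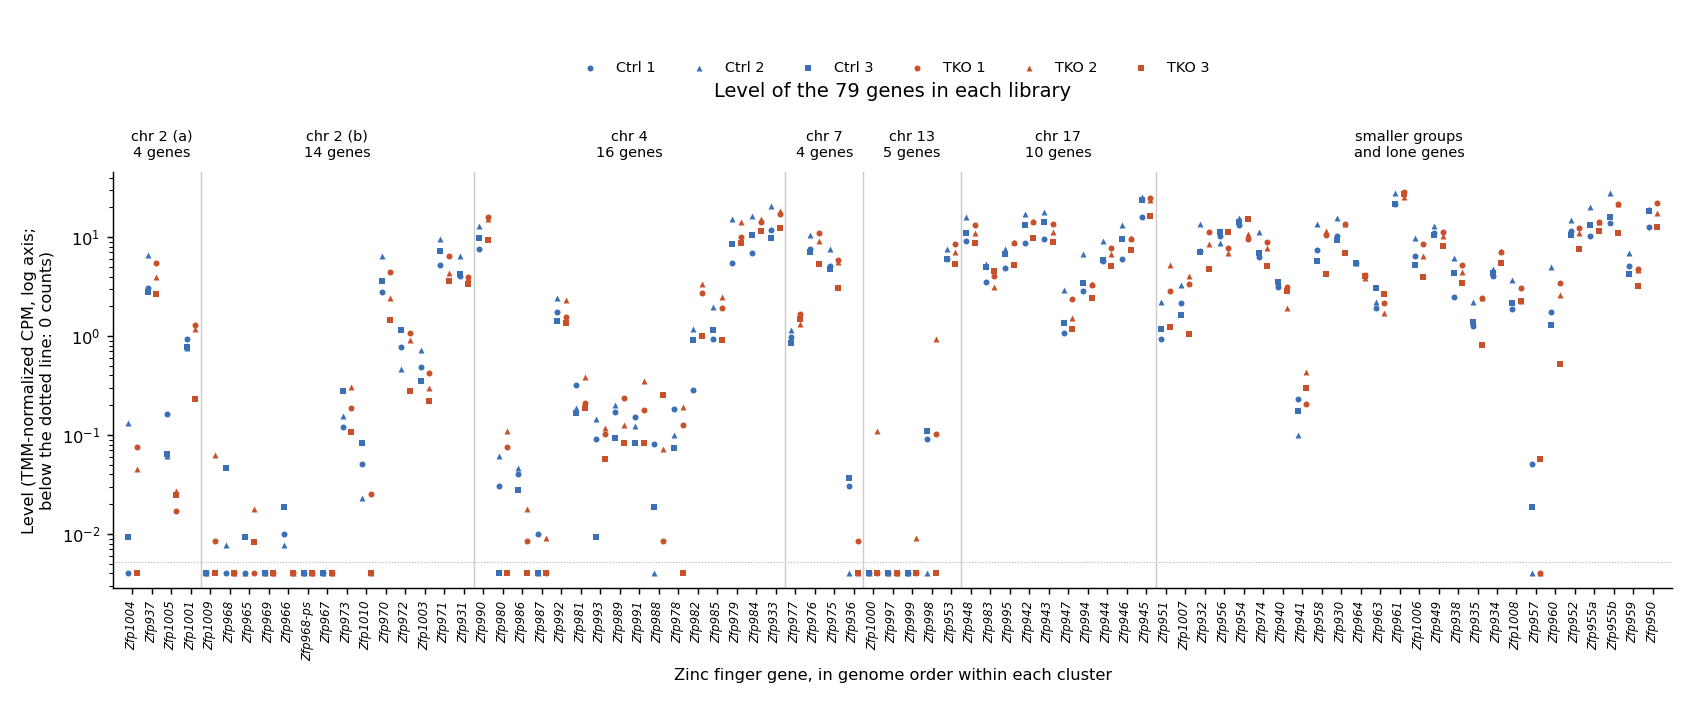
Level of the 79 genes in each of 6 libraries, as CPM on a log axis, with genes in genome order within each cluster, Ctrl in blue and TKO in orange. Points below the dotted line are 0 counts. The genes at 0 or near 0 sit mostly in the second chr 2, chr 4 and chr 13 clusters, whereas every gene of the chr 17 cluster exceeded 1 CPM in every library.

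Promoter sequence was available for 55 of the 79 genes in a RefSeq table for GRCm38.p6, as 250 bases before to 50 bases after the start site. A stretch with CCAATCA followed after 16 bases by CTGCCAGTCAGA was found in 16 of the 55 promoters, on 4 chromosomes, always with the same spacing. The 85 bases around it are shown for 6 genes to let the likeness between chromosomes be seen, with these 2 motifs in capitals. Zfp971 and Zfp931 belong to the chr 2 cluster of 14 genes, Zfp976 and Zfp977 to the chr 7 cluster, and Zfp932 and Zfp951 lie apart on chr 5.

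Zfp971 (GRCm38.p6, chr2:178023166-178023250, + strand): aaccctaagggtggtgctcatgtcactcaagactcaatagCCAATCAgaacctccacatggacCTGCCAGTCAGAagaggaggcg
Zfp931 (GRCm38.p6, chr2:178078489-178078573, - strand): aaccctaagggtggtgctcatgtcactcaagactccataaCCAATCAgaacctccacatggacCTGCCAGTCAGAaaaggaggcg
Zfp932 (GRCm38.p6, chr5:109996415-109996499, + strand): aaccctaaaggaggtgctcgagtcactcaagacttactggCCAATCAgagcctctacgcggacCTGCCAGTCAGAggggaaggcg
Zfp951 (GRCm38.p6, chr5:104860085-104860169, - strand): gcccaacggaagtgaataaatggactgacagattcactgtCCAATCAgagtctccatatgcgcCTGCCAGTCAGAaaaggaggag
Zfp976 (GRCm38.p6, chr7:42642612-42642696, - strand): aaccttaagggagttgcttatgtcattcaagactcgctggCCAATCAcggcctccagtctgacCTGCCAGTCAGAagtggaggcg
Zfp977 (GRCm38.p6, chr7:42592569-42592653, - strand): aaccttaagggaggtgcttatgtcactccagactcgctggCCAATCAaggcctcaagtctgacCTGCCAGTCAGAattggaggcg

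Against Zfp971 the 85 bases differed at 3 positions in Zfp931, 14 in Zfp932, 16 in Zfp976, 17 in Zfp977 and 33 in Zfp951. Zfp966 and Zfp967, also of the chr 2 cluster, matched Zfp971 at all 85 positions, and their 300-base promoters were identical to each other. Searched on both strands, CTGCCAGTCAGA was found in 52 of 27025 promoters of the table (0.192%) and in 1 of 270 promoters of Zfp genes numbered under 900 (0.37%). Apart from the 16 genes examined here, the 52 comprised 28 genes with Gm names, 2 other Zfp genes and 6 others. The letters CCAAT alone were found in 42 of 55 promoters (76.4%), against 43% of those of Zfp genes numbered under 900 and 37.9% of all (these letters are part of the first motif). Among all 12-base words read on the printed strand, this motif was found in more of the 55 promoters than any other, 16 against 15 for each of the next 2, which overlap it. Both motifs were picked after the sequences were seen and are a description, and a match is not evidence that a factor binds.

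Levels were mostly low. The 60 genes that passed the low-count filter had a median level per length of 0.812 CPM per kb of exon in Ctrl, against 2.33 CPM per kb for the 323 tested Zfp genes numbered under 900, and 9 of the 60 were above that second median. In all 6 libraries 43 genes exceeded 1 CPM, and 16 had a mean over 10 CPM. The highest per length was Zfp984, with 3.63 ± 1.55 CPM per kb in Ctrl (SD, n = 3), followed by Zfp958 (3.58 ± 1.66), Zfp955a (3.53 ± 1.26), Zfp956 (3.14 ± 0.384), Zfp933 (3.01 ± 1.22) and Zfp954 (2.88 ± 0.251). These 6 did not differ from their neighbours in this order beyond their spread. None was called in TKO, with log2 fold changes from -0.27 for Zfp954 to 0.27 for Zfp984.

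Zfp932, Zfp961 and Zfp989 were read next, as genes listed by symbol in the naming rule. Zfp932, a KRAB zinc finger gene described as a repressor of endogenous retroviruses, was at 7.17, 13.6 and 7.15 CPM in Ctrl 1 to 3 and at 11.4, 8.52 and 4.79 CPM in TKO 1 to 3. Zfp961 was at 21.8, 27.9 and 21.8 CPM in Ctrl and at 28.9, 25.3 and 27.4 CPM in TKO, one of the steadier genes of the set. Zfp989, of the chr 4 cluster, was at 0.0928 to 0.201 CPM in Ctrl and 0.0822 to 0.238 CPM in TKO. Only 2.632% of the 100-base windows of its exons occur once in GRCm39 and it overlaps 1 other annotated gene, which limits its level as described below. In all 3 the groups overlapped, and log2 fold changes were -0.18 (SE 0.354), 0.19 (SE 0.157) and -0.06 (SE 0.825). For Zfp961 the 95% interval ran from -0.16 to 0.54, while for Zfp989 it ran from -1.91 to 1.78 and bounds little.

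At the low end, 4 genes had no count in any library (Zfp969, Zfp967, Zfp968-ps and Zfp997), and 8 had at most 3 counts in every library. Sequence uniqueness went with this. The exons of each gene were cut into all 100-base windows, and the share found once in GRCm39 was taken as its uniqueness. The 10 genes with under 10% unique windows had a median level of 0.006 CPM and at most 0.193 CPM, and 2 of them passed the filter. Among the 35 genes with at least 90% unique windows the median was 6.76 CPM and 34 passed. In between, the median was 0.162 CPM for 11 genes with 10% to 50% and 1.57 CPM for 23 genes with 50% to 90%. How the counting program treated reads with several matches is not given in the sources used here. A low count in the first class, Zfp989 included, thus cannot be told apart from reads that were set aside.

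**Figure D2:**
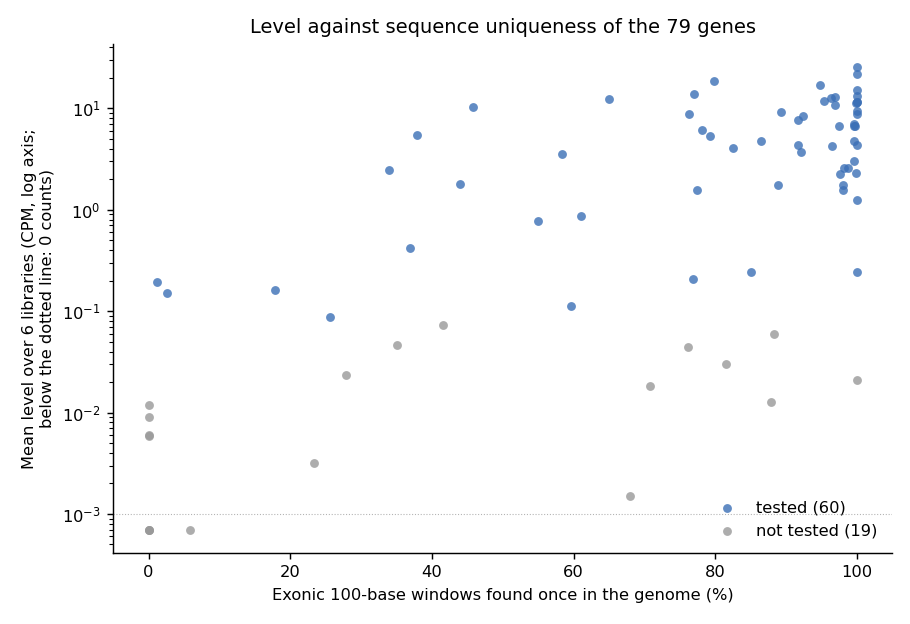
Mean level over the 6 libraries, as CPM on a log axis, against the percentage of exonic 100-base windows found once in GRCm39, for the 79 genes. Each point is a gene, in blue if tested and in grey if not. All genes under 10% unique lie at or below 0.193 CPM, and the genes of at least 90% have a median of 6.76 CPM.

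The chr 2 cluster of 14 genes holds 8 of those 10 genes. Zfp966, Zfp967, Zfp968 and Zfp969 encode proteins of identical sequence, as do Zfp965 and Zfp973. Zfp967 and Zfp969 had 0 counts everywhere. Zfp968 had 1 count in Ctrl 2, 5 in Ctrl 3 and 0 elsewhere, and Zfp966 had 0 in all TKO libraries. By contrast Zfp971, whose promoter stretch is printed above and is the same as in Zfp966 and Zfp967, had 78.11% unique windows and was at 5.25, 9.57 and 7.26 CPM in Ctrl and 6.47, 4.32 and 3.63 CPM in TKO. A gene can also lie near 0 with sequence that is not repeated, as Zfp957 did (99.93% unique windows, 0 to 0.0576 CPM), an example chosen after its values were seen.

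TKO was then compared with Ctrl. No gene of the set was called at an adjusted p-value under 0.05 with an absolute log2 fold change above 1, out of 60 tested. Among all 20622 genes tested, 27 were called (0.131%), all of them higher in TKO. With DESeq2 on the same genes, which called 1.04% of all genes, the set again gave 0, and the smallest adjusted p-value in it was 0.239. At an unadjusted p-value under 0.05, edgeR gave 2 genes higher in TKO and 0 lower, beside 4.06% and 2.02% of all genes, and both are described below. The share of the set at this level was near the background.

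The differences were also small in size. The median log2 fold change of the 60 was -0.06, with quartiles of -0.22 and 0.19, and 24 were positive and 36 negative. For all genes tested the median was 0.01, and 51.9% were positive. The 323 Zfp genes numbered under 900 had a median of -0.03 with 133 positive. For 33 of the 60 genes the 95% interval lay wholly between -1 and 1, and for 41 its upper end was under 1, so that a doubling was outside the interval. Of the remaining 19, 18 had mean levels under 5 CPM in Ctrl, and for all 19 a doubling lay within the interval at this depth and spread. The biological coefficient of variation over all genes was 36.48%.

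**Figure D3:**
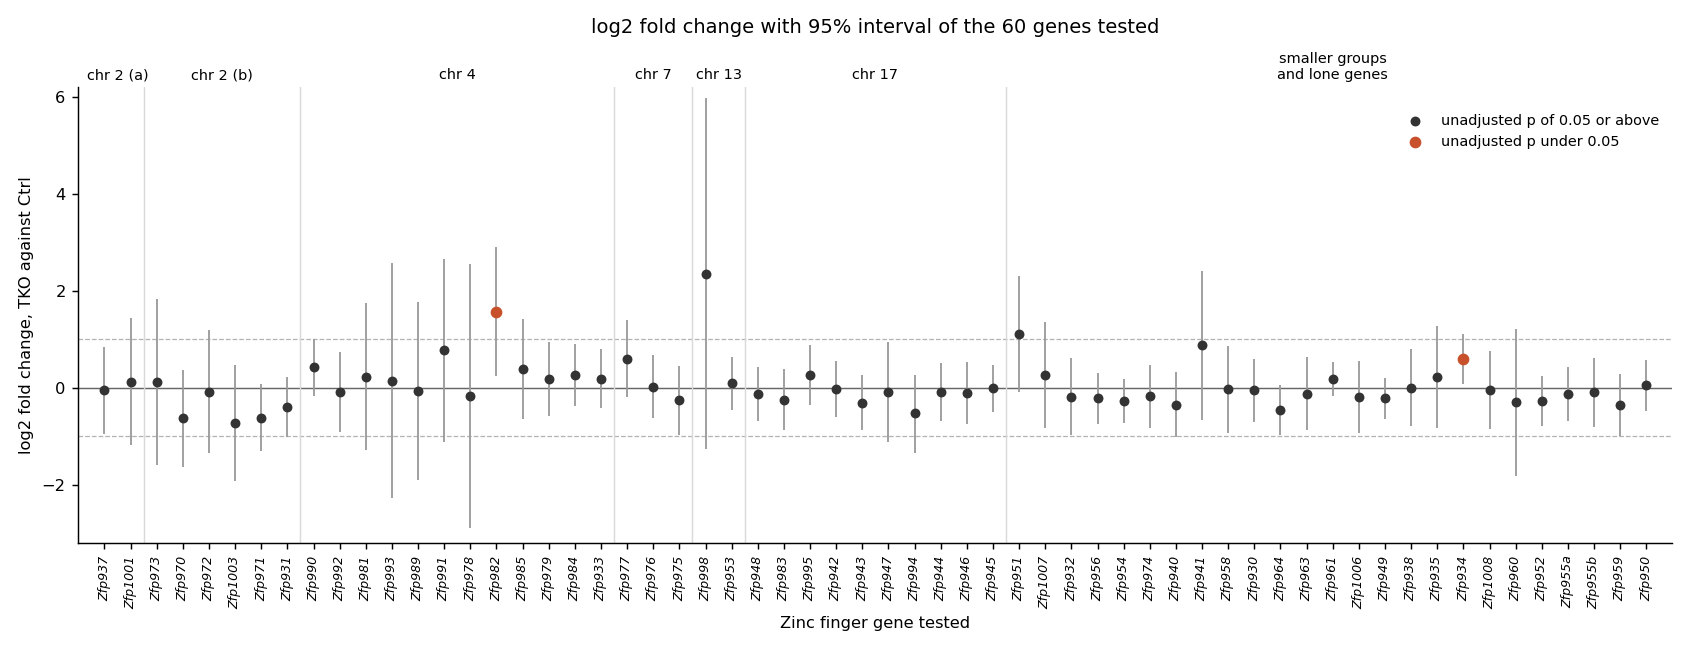
log2 fold change of TKO against Ctrl for the 60 genes tested, by cluster, with the 95% interval from edgeR's quasi-likelihood fit as a vertical line. Dashed lines mark -1 and 1. Zfp982 and Zfp934, in orange, are the 2 genes with an unadjusted p-value under 0.05, and the interval of Zfp998 reaches from -1.26 to 5.97.

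Zfp982 (chr4:147545583-147601280) was at 0.283, 1.17 and 0.918 CPM in Ctrl 1 to 3 and at 2.7, 3.36 and 0.995 CPM in TKO 1 to 3. TKO 1 and TKO 2 were above every Ctrl library, and TKO 3 lay within the range of Ctrl. Its log2 fold change was 1.57 (SE 0.594, 95% interval 0.24 to 2.90), with unadjusted p = 0.0251 and adjusted p = 0.726 by edgeR. Leaving out any one library gave values between 1.17 and 1.96. The gene overlaps 2 other annotated genes, and 77.4% of its windows were unique.

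Zfp934 (chr13:62620860-62719013) was at 4.07, 4.71 and 4.33 CPM in Ctrl and at 7.09, 7.23 and 5.51 CPM in TKO, and the groups did not overlap. The log2 fold change was 0.60 (SE 0.234, 95% interval 0.07 to 1.12), with unadjusted p = 0.0295 and adjusted p = 0.736 by edgeR. It overlaps 6 other annotated genes and only 37.88% of its windows were unique. Reads counted for it may therefore come from other genes, and the strand used in counting is not given in the sources used here.

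Zfp951 (chr5:104960515-105008190), which overlaps no other gene and had 97.55% unique windows, was at 0.929, 2.22 and 1.18 CPM in Ctrl and at 2.87, 5.2 and 1.25 CPM in TKO. As for Zfp982, TKO 1 and TKO 2 were high and TKO 3 was within the range of Ctrl. The unadjusted p-value of its log2 fold change of 1.10 was 0.0661, and with 1 library left out the fold change ran from 0.51 (without TKO 2) to 1.56 (without Ctrl 2). These genes and Zfp998, named because of its size after the values were seen, were the 3 with an absolute log2 fold change above 1, beside 7.53% of all genes. Zfp998 had 103 counts in TKO 2 and at most 12 in any other library, so that its log2 fold change of 2.35 rested on TKO 2.

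Groups that did not overlap were found for 2 tested genes with TKO above (6.35% of all genes tested) and 2 with TKO below (5.11%). Besides Zfp934, the higher one was Zfp977 of the chr 7 cluster, at 0.979, 1.14 and 0.844 CPM in Ctrl and 1.69, 1.31 and 1.49 CPM in TKO (log2 fold change 0.60, SE 0.355). Zfp964 (chr8:70107112-70119781) was at 5.42, 5.47 and 5.52 CPM in Ctrl and 4.12, 3.83 and 4.02 CPM in TKO, the tightest groups among the 4. Its log2 fold change was -0.46 (SE 0.229), with an unadjusted p-value of 0.0753. Zfp931 was at 4.08, 6.39 and 4.25 CPM in Ctrl and 3.98, 3.89 and 3.35 CPM in TKO (log2 fold change -0.39, SE 0.276), where the Ctrl and TKO libraries nearest each other were 4.08 and 3.98. Without Ctrl 2 its log2 fold change was -0.16. None of the 4 was called.

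**Figure D4:**
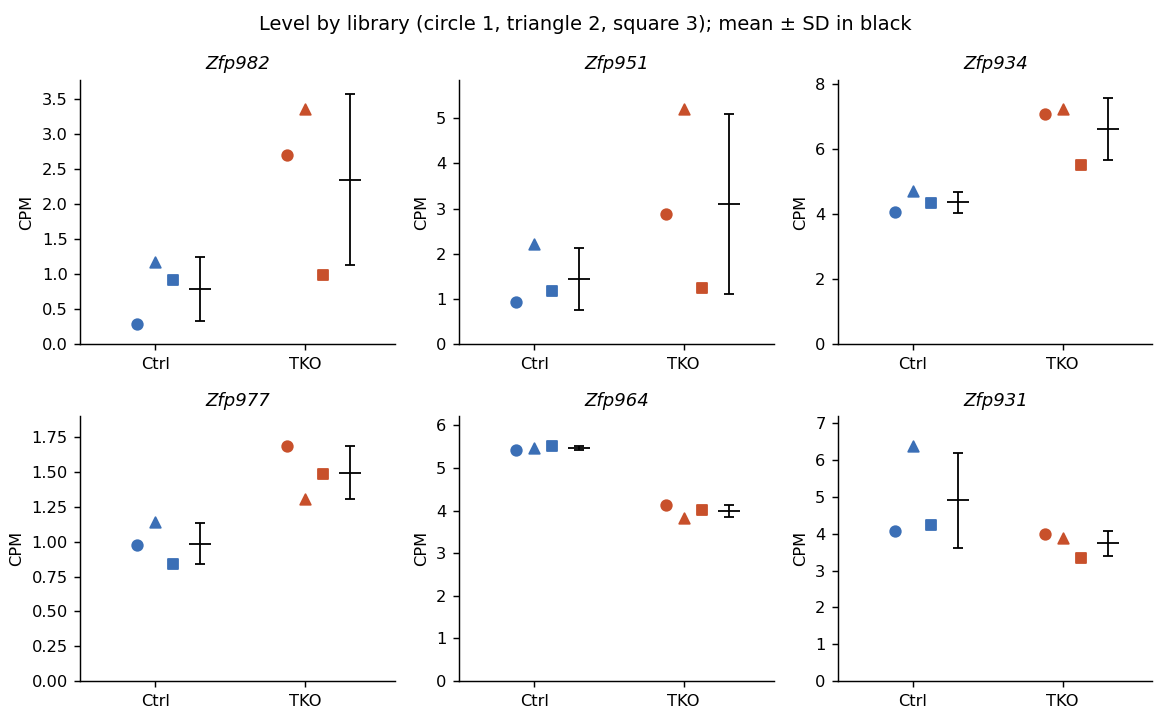
CPM in each library for 6 genes, with Ctrl in blue, TKO in orange and the mean ± SD of 3 libraries in black. TKO 3 (square) lies within the Ctrl range for Zfp982 and Zfp951, and the groups are apart for Zfp934, Zfp977, Zfp964 and Zfp931.

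Genes at the floor in Ctrl were then read in TKO. Of the 79, 10 had at most 3 counts in every Ctrl library, and 0 of these had more than 10 counts in at least 2 TKO libraries, a pattern found in 104 of the 55536 genes of the table (0.187%). As 7 of the 10 had under 10% unique windows, a gene that stayed off in TKO cannot be told apart for them from reads that were set aside. The nearest were Zfp1000, with 12 counts in TKO 2 alone, and Zfp1009, with 7 counts in TKO 2 and 1 in TKO 1, both at 0 in Ctrl. Zfp996, which is annotated as a processed pseudogene and so lies outside the set, had 0, 0 and 1 counts in Ctrl and 5, 20 and 0 in TKO.

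The clusters were summarised next, and differences between clusters were not tested. In the chr 4 cluster 12 of 16 genes were tested, 9 with a positive and 3 with a negative log2 fold change, and the median was 0.21 (0.05 without TKO 2 to 0.64 without Ctrl 2). The summed level of the cluster was 35.8, 71.4 and 42.4 CPM in Ctrl 1 to 3 and 64.3, 72.5 and 46 CPM in TKO 1 to 3. Ctrl 2 was close to the highest TKO library, and the groups overlapped. In the chr 17 cluster, where all 10 genes were tested, 1 was positive and 9 were negative with a median of -0.10. This split rested on single libraries, since 7 were positive without Ctrl 2 (median 0.15) and 7 without TKO 3 (median 0.04). The sums were 67.6, 121 and 94.2 CPM in Ctrl and 102, 94.3 and 69.8 CPM in TKO. Zfp945 took the most counts there, with a mean of 21.7 CPM in Ctrl and a log2 fold change of -0.0038 (95% interval -0.49 to 0.48). Per length the highest was Zfp946, with 2.57 ± 0.99 CPM per kb in Ctrl (SD, n = 3) against 1.82 ± 0.41 for Zfp945, a difference within the spread.

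In the chr 2 cluster of 14 genes 6 were tested, 1 positive and 5 negative, with a median of -0.50 (-0.67 without TKO 1 to -0.29 without Ctrl 2). The tested genes ranged from -0.73 for Zfp1003 to 0.12 for Zfp973, and the cluster summed to 13.6, 23.7 and 17.1 CPM in Ctrl and 16.6, 12.2 and 9.06 CPM in TKO. TKO 2 and TKO 3 were below every Ctrl library and TKO 1 was not. The chr 7 cluster had 3 tested genes with a median of 0.02, and the other chr 2 cluster had 2 with a median of 0.04. Both medians changed sign with 1 library left out, from -0.23 to 0.26 and from -0.30 to 0.38. In the chr 13 cluster 2 of 5 genes were tested, Zfp953 (0.10) and Zfp998 (2.35). In the summed level of each of the 25 groups of genes, lone genes included, Ctrl and TKO overlapped.

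Other genes in the same stretches were read for comparison. Of 62 protein-coding genes of other families within or up to 200 kb beside clusters of at least 2 genes, 34 were tested, 11 were positive and 23 negative, and none was called. Their median log2 fold change was -0.07. A further 53 genes inside the clusters encode proteins with at least 3 C2H2 fingers under other names. In this group 38 were tested with 7 positive, 31 negative, a median of -0.20 and no call. Of the 16 genes with the shared promoter stretch 11 were tested, with a median log2 fold change of -0.08 and a median level of 0.782 CPM per kb in Ctrl. Of the other 39 with a promoter 35 were tested, with a median log2 fold change of -0.08 and a median level of 1.26 CPM per kb in Ctrl. Differences between these groups of genes were not tested. No promoter of the 55 held TATAAA, against 7.41% of those of Zfp genes numbered under 900 and 14.2% of all promoters in the table.

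The libraries differed more than the groups did. Ctrl 2 was the highest library for 34 of the 60 tested genes and TKO 3 was the lowest for 33. Relative to each gene's geometric mean over the libraries, the median log2 level of the set was -0.21, 0.46 and -0.16 in Ctrl 1 to 3 and 0.25, 0.11 and -0.38 in TKO 1 to 3 (58 genes without a 0). Thus 1 Ctrl and 2 TKO libraries were above 0. Zfp genes numbered under 900 moved less, from -0.11 in Ctrl 1 to 0.19 in Ctrl 2, and protein-coding genes lay between -0.02 and 0.04. Summed over the 79 genes, the level was 313, 508 and 359 CPM in Ctrl and 439, 415 and 301 CPM in TKO, or 394 ± 102 and 385 ± 73.7 CPM (SD, n = 3), a difference within the spread.

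**Figure D5:**
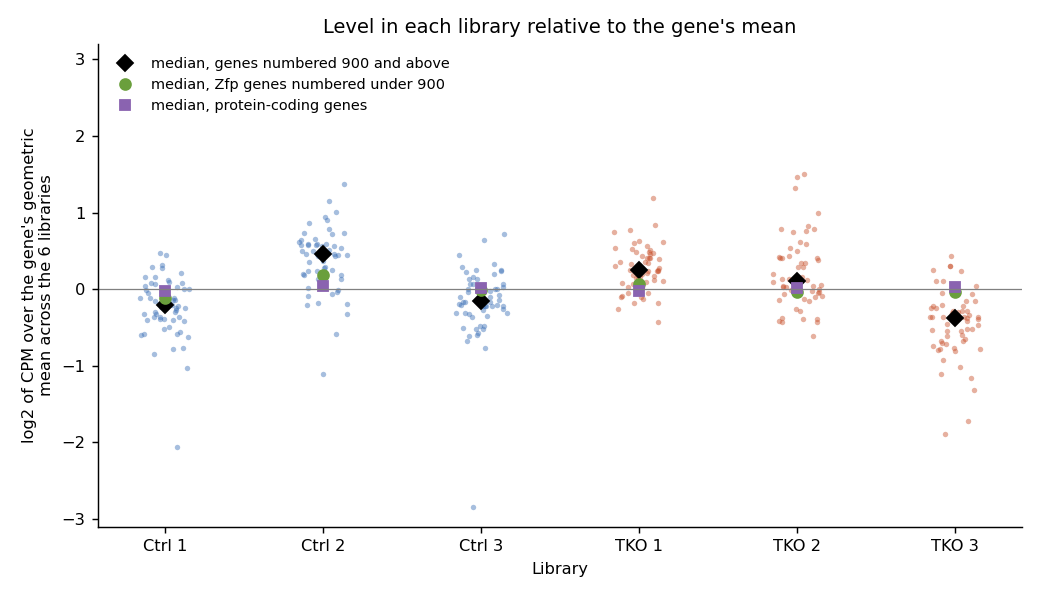
log2 of the CPM of each gene over its geometric mean across the 6 libraries, for the 58 tested genes with no 0 (small points), with medians for the set (diamonds), Zfp genes numbered under 900 (circles) and protein-coding genes (squares). The set's median runs from -0.38 in TKO 3 to 0.46 in Ctrl 2, while that of protein-coding genes stays between -0.02 and 0.04.

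The direction of the set's median depended on these libraries. It was 0.19 without Ctrl 2 and 0.17 without TKO 3, and lay between -0.20 and -0.12 when any one of the others was left out. Without both Ctrl 2 and TKO 3, a choice made after the pattern was seen, it was 0.37 with the median of all genes at 0.00, and still no gene of the set was called (smallest adjusted p = 0.106, for Zfp951, by edgeR). Ctrl 2 had the most counts (136515436) and the highest fibroblast sum (3358 CPM). In TKO 3 the 3 most abundant identifiers took the smallest share of counts, 5.65% against 8.86% to 13.2% in the others. The part of depth, fibroblast RNA and these abundant transcripts in the pattern was not tested. By the labels Ctrl 2, Ctrl 3, TKO 1 and TKO 3 were male and the others female.

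Finally, the partners of KRAB zinc finger proteins were examined. Of 19 genes of the corepressor list, all tested, 1 was called, beside 0.131% of all genes. It was Atf7ip, which encodes the protein that stabilises Setdb1 and helps to keep it in the nucleus. Atf7ip was at 167, 177 and 219 CPM in Ctrl and 360, 469 and 385 CPM in TKO, with all TKO libraries above all Ctrl libraries. It rose by a log2 fold change of 1.11 (SE 0.164) with adjusted p = 0.0429 by edgeR. The adjusted p by DESeq2 was 3.37e-07. With 1 library left out the log2 fold change stayed between 0.99 and 1.23, while the adjusted p by edgeR ran from 0.0381 to 0.27 and Atf7ip was called in 1 of 6 fits, the one without TKO 3. Trim28 itself was at 483, 403 and 389.7 CPM in Ctrl and 382, 374 and 445 CPM in TKO, with overlapping groups and a log2 fold change of -0.09 (SE 0.149). Among the others only Setdb1, given above, had an unadjusted p-value under 0.05.

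None of the 9 genes for H3K9 methylation and the HUSH complex was called, and Tasor, a HUSH subunit, had an unadjusted p-value of 0.043 (log2 fold change 0.45, SE 0.193). For DNA methylation and histone H3.3 deposition none of 6 was called. Dnmt3b, a de novo DNA methyltransferase, was at 16.9, 14.2 and 16.7 CPM in Ctrl and 23.9, 27.4 and 17.8 CPM in TKO, with unadjusted p = 0.0179 and adjusted p = 0.658. Of 9 other mouse KRAB zinc finger genes with known retroelement or imprinting targets 8 were tested, none was called, and 3 were higher at an unadjusted p-value under 0.05, beside 4.06% of all genes tested. The list was chosen with earlier results of these data known, and its count is a description. The 3 were Zfp57, which guards imprinted loci (log2 fold change 0.66), Zfp568 (0.40), a repressor of a placental Igf2 transcript, and the X-linked Zfp92 (2.84). Zfp92 was at 0.162, 0 and 0.213 CPM in Ctrl and at 0.646, 1.54 and 0.485 CPM in TKO, and its adjusted p-value by edgeR was 0.663. With 1 library left out its log2 fold change ran from 2.18 to 3.49.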

How the data were processed

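Libraries were made from rRNA-depleted total RNA and sequenced paired-end. After trimming (fastp) and alignment (STAR), the authors deposited unnormalized gene counts for 6 libraries. The labels name GRCm38 and the methods GRCm39. The counting program, its annotation and its strand setting are not given in the sources used here. Symbols, types, GRCm39 positions and coding sequences came from GENCODE vM39 by gene identifier (51477 of 55536 matched), and promoters from RefSeq (GRCm38.p6) by symbol. No genome coordinates were converted.

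Counts were tested with edgeR 4.0.16 (R 4.3.3): filterByExpr with a minimum count of 10 and total of 15, TMM, glmQLFit (robust) and glmQLFTest, two-sided, with Benjamini-Hochberg adjustment over 20622 genes. Alternatives were DESeq2 1.42.0 on the same genes and by default, RLE scaling, other filters and thresholds, no robust estimation, the replicate block, sex, each library left out and narrower membership. On simulated counts (20211 genes) edgeR recovered 79.6% of changes of 2 and 100% of changes of 3 on the log2 scale. Only genes above a minimum mean count were changed, all genes had the same dispersion, and no smaller change was simulated. These shares therefore do not give the recovery of changes near the threshold of 1 or in genes with low counts. The labels do not tie samples to litters, so the main fit pairs no libraries and its p-values measure the spread between these libraries. If the replicate numbers mark litters, its p-values and intervals ignore that pairing. The fit with the replicate block is given below.

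The genes and lists were chosen with earlier results of these data known. Genes named were those with an unadjusted p-value under 0.05, the 6 highest per length in Ctrl, those with non-overlapping groups (up to 4 each way), Zfp932, Zfp951, Zfp961, Zfp989 and Zfp996, listed partners with an unadjusted p-value under 0.05, and the targeted genes. Others served as examples chosen after their values were seen. Markers of other cell types were also read (hair follicle, endothelial, immune, melanocyte, erythroid and pluripotent sums overlapped between groups, suprabasal and Merkel cell sums were lower and skeletal muscle and germ cell sums higher in every TKO library).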

Additional observations from a re-analysis of the deposited data

How the results depend on the processing

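No gene of the set was called under any of the 21 alternatives run, and the smallest adjusted p-value in the set was 0.0794, for Zfp982 by edgeR with no low-count filter. The stricter adjusted p threshold and the narrower memberships reuse the main fit, which gave 0 calls. They could not have added a call and are no further support. The median log2 fold change of the set lay between -0.20 and 0.19 with 1 library left out and was 0.37 without both Ctrl 2 and TKO 3, a choice made after seeing the data. The cause was not tested. Under the other settings it lay within the spread between replicates of -0.06. None of the 3 targeted genes was called under any alternative tried. Their log2 fold changes by edgeR (-0.65 for Setdb1, -0.10 for Suv39h1 and 0.11 for Suv39h2) lay inside the fold threshold of 1, so a call was hardly possible. With no fold threshold the main edgeR fit gave 0 of the 3, while DESeq2 gave Setdb1 an adjusted p of 0.0449. Each of 210 alternative values for the 15 named genes stayed uncalled. The number of calls over all genes moved more: 27 became 45 with the replicate block, 214 with DESeq2 on the same genes, 226 with its default workflow, 235 with no low-count filter (213 higher and 22 lower), 9 with at least 10 counts in every library, and 7 (without Ctrl 2) to 81 (without TKO 3) with 1 library left out.

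The replicate numbers were not taken to pair the samples, since the correlations of deviations of same-numbered libraries (0.1683, 0.0873 and 0.1273) were not all above 0.1. Those of differently numbered libraries were lower, from -0.1609 to 0.0398, so that every library correlated best with its own number, which is a hint from the data. The study took Cre-negative littermates as controls, but the labels do not say that a number marks a litter. In the fit with this number as a replicate block, 0 genes of the set and 0 targeted genes were called and the median was -0.06, and the adjusted p of Atf7ip by edgeR was 0.0305. Genes of the set with an unadjusted p-value under 0.05 became 3 higher and 0 lower, Zfp951 being added to Zfp982 and Zfp934 (log2 fold change 0.99, unadjusted p = 0.0319, adjusted p = 0.581 by edgeR), and Zfp951 and Zfp982 were higher in TKO than in the Ctrl library of the same number for all 3 numbers. Clusters of at least 4 genes numbered 6 with 0.5 or 2 Mb between neighbours as well, and a looser KRAB pattern was found in 73 proteins. Of the 79 genes 49 overlap another gene, and 18 tested genes remained without them (median -0.10, 0 called). The part of reads that match several copies or overlapping genes in the levels was not tested.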
